A study of Homo sapiens and Mus musculus with 36 samples.

Results

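The response of DOT1L-edited HuH-7 cells to interferon (IFN) was described from 8 of the 36 libraries of the series, all 8 chosen by their labels: 4 libraries of edited cells with IFN and 4 of edited cells without it. HuH-7 is an established line from a human liver carcinoma, and DOT1L is the enzyme that methylates lysine 79 of histone H3. RNA was sequenced from cells edited with guide sg1 or sg2 against DOT1L (genotype given as a DOT1L knockout), with 2 libraries per guide in each IFN state. For comparison, cells with the guide sgNeg2 (genotype given as wild type) gave 2 libraries without IFN and 2 with it, and wild-type HuH-7 cells treated for 7 days with EPZ-5676, an inhibitor of DOT1L, gave 3. All groups were grown in the same serum-containing medium. The sources used here do not state the type, dose or time of IFN, or whether edited cells were clones or pools. Nothing in the labels says that replicates were separate cultures, so p-values measure the spread between these libraries, which may be technical.

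Interferons bind paired receptors whose Janus kinases phosphorylate STAT factors. Type I and type III interferons act mainly through the interferon-stimulated response element (ISRE), which IRF9 helps to bind, and type II interferon through the gamma-activated site (GAS). IRF1, itself induced by interferon, carries the signal on to genes of antigen presentation, chemokines and guanylate-binding proteins.

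The promoters of 4 genes central to the description are shown, with matches to these motifs in capitals. GBP5 was chosen with them but had no promoter entry in the reference used. The windows shown are those of RefSeq on GRCh38.p14, from 250 bases before to 50 bases after the start. All 4 genes shown lie on the minus strand. CXCL9 (chr4:76007460-76007759) and CXCL10 (chr4:76023448-76023747) each hold 1 ISRE match, IRF1 (chr5:132490724-132491023) holds 1 GAS match, and WARS, named WARS1 by RefSeq (chr14:100376278-100376577), holds neither.
CXCL9: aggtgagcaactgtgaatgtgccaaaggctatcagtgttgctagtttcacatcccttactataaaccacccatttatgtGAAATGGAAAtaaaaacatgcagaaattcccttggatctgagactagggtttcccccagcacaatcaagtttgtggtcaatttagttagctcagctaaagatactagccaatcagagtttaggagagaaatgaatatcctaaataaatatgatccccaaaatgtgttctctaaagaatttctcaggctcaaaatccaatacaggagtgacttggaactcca
CXCL10: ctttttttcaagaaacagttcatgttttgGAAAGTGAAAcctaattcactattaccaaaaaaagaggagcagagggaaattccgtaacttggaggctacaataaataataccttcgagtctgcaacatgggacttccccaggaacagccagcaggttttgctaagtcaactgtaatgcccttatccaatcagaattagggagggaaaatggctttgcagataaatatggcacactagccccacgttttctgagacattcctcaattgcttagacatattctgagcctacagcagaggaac
IRF1: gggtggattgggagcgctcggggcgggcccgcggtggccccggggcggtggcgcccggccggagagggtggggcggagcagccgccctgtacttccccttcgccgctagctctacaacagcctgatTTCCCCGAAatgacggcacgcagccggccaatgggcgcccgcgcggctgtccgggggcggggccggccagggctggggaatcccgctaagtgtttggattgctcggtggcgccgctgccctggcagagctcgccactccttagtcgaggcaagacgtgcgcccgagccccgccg
WARS: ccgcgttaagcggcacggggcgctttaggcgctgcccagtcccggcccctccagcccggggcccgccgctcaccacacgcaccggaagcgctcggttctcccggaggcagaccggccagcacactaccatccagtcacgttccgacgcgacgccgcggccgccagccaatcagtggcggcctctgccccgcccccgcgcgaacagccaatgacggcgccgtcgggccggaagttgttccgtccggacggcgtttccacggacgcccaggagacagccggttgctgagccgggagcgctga
The ISRE was searched as GAAA, then NN, then GAAA, and the GAS as TTCNNNGAA, on both strands. The match in CXCL9 was GAAATGGAAA, from -171 to -162 relative to the start. The match in CXCL10 was GAAAGTGAAA, from -221 to -212, and that in IRF1 was TTCCCCGAA, from -124 to -116. Of 16139 tested genes 12315 had a promoter in the table, and 6.72% of these held a GAS match and 2.88% an ISRE match. Among the 100 largest rises with IFN, 13 promoters held a GAS match and 15 an ISRE match. Among all called rises the shares were 6.46% and 3.33%. ISRE matches were present in 18 of 29 promoters of the antiviral list described below, in 8 of 15 of the class I list and in 3 of 7 of the guanylate-binding protein list, and GAS matches in 7, 0 and 1 of these promoters. A match describes letters in the window and does not show that a factor binds there.

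The libraries with and without IFN differed in more than IFN. Edited libraries without IFN held 19580588 to 22141785 counts and those with IFN 49110690 to 61227426. Small RNA genes took 3.26 to 5.43% of the counts without IFN and 0.0103 to 0.0108% with it, and histone genes 0.986 to 1.16% and 0.258 to 0.28%. The 6 libraries treated with EPZ-5676 or its vehicle DMSO had histone shares of 0.247 to 0.252% and small RNA shares of 0.017 to 0.0225%, near those of the libraries with IFN. Among the guide libraries IFN and this difference in content cannot be told apart. Histone and small RNA genes were therefore left out, and changes are also given against the EPZ-5676 libraries, where their files list the gene. These share the low content and had no IFN, but differ in genotype and drug. Both comparisons use the same 4 libraries with IFN. The replicates of sg2 without IFN differed more than those of the other 5 guide groups (chi-square per degree of freedom 16.44, against 2.456 to 7.563).

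The edited gene was measured first. DOT1L had normalised read counts (CPM, counts scaled to the library total) of 36.4, 32.9, 41.4 and 36.1 in sg1 replicates 1 and 2 and sg2 replicates 1 and 2 without IFN, and of 44.6, 48.7, 69.2 and 69.1 in the same order with IFN. In sgNeg2 cells the levels were 79.9 and 77.8 CPM without IFN and 109 and 109 CPM with it. Every edited library lay below every sgNeg2 library, and the edited libraries with IFN lay above those without. The log2 change with IFN in edited cells was 0.66 (SE 0.13, adjusted p = 0.000446), and against EPZ-5676 it was 0.17 (adjusted p = 0.226). The read count of a gene does not show whether its edited transcripts make protein.

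The 4 genes GBP5, CXCL9, CXCL10 and WARS, taken as markers of the response, were far higher with IFN in every edited library. In each gene below, the 4 values without IFN and the 4 with IFN are in the order sg1 replicate 1, sg1 replicate 2, sg2 replicate 1 and sg2 replicate 2, and changes are on the log2 scale. GBP5, a GTPase of cell-autonomous defence, stood at 1.84, 2.01, 2.15 and 2.36 CPM without IFN and at 377, 378, 378 and 367 CPM with it. The libraries with IFN lay close together whatever the guide, and the change was 7.49 (SE 0.09, adjusted p = 8.75e-16). In EPZ-5676 cells GBP5 averaged 0.336 CPM, and the change against them was 10.08.

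CXCL9 and CXCL10 encode chemokines that draw T cells through the receptor CXCR3. CXCL9 stood at 0.335, 0.171, 0.327 and 0.337 CPM without IFN and 341, 321, 301 and 273 CPM with it, a change of 10.04 (SE 0.18, adjusted p = 7.18e-14). CXCL10 stood at 7.21, 7.09, 8.79 and 8.24 CPM without IFN and 586, 597, 552 and 533 CPM with it, a change of 6.18 (SE 0.08, adjusted p = 3.35e-15) that was 5.33 against EPZ-5676. For both chemokines the groups did not overlap, and with IFN both sg1 libraries were above both sg2 libraries. WARS, the cytosolic tryptophanyl-tRNA synthetase, stood at 47.6, 47.6, 45.4 and 49.7 CPM without IFN and 919, 912, 928 and 918 CPM with it. Its change of 4.27 (SE 0.06, adjusted p = 2.52e-15) was 3.57 against EPZ-5676, and the libraries within each state were close.

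**Figure D1:**
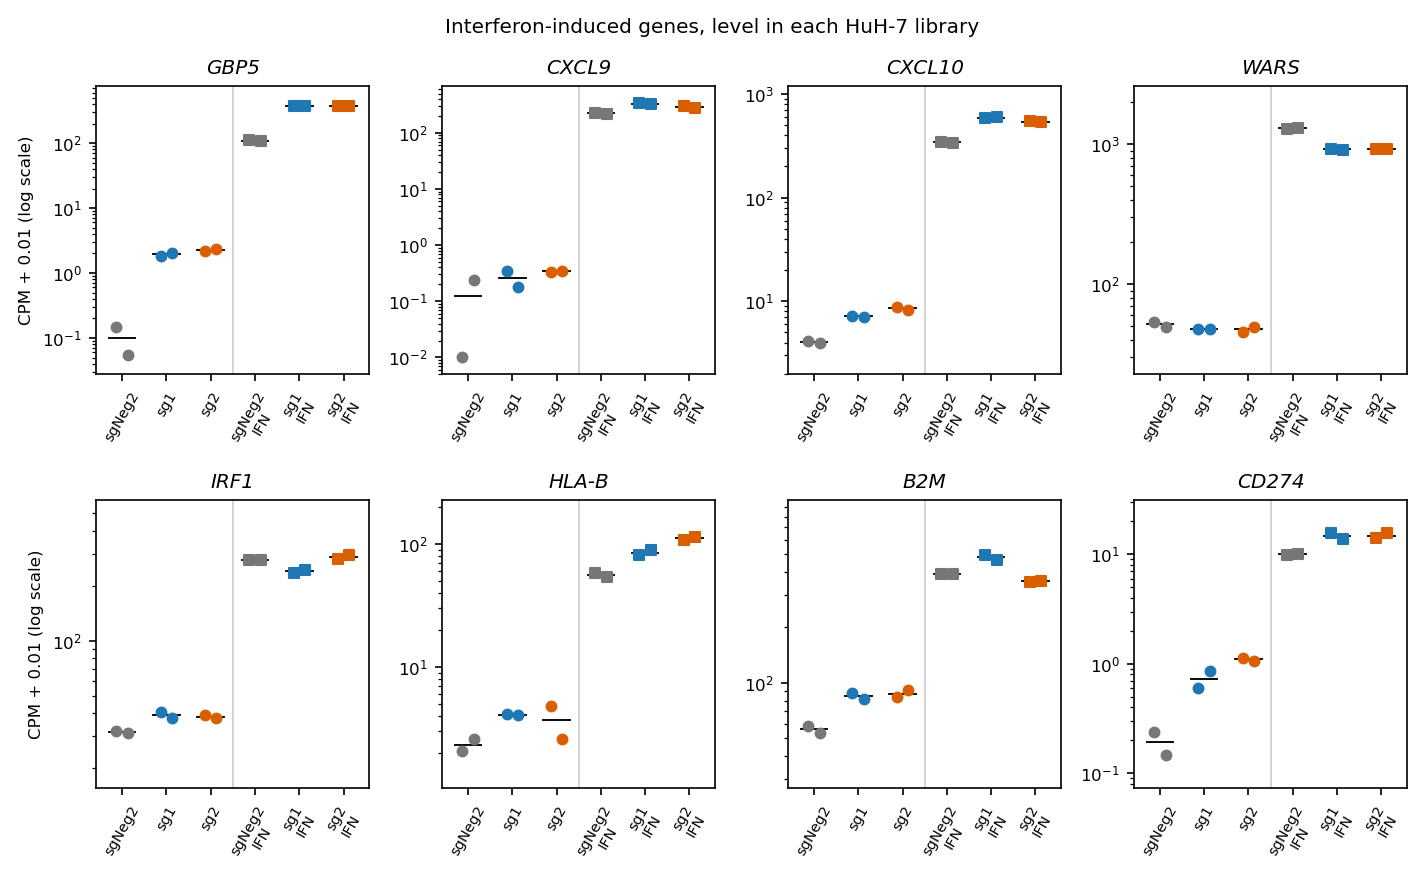
Level of 8 interferon-induced genes in each guide library (CPM + 0.01 on a log axis), where points are libraries, bars are means of 2 libraries, circles are without and squares with IFN. In each of the 8 panels the 4 edited libraries with IFN lie above the 4 without; WARS, for example, is at 45.4 to 49.7 CPM without and 912 to 928 CPM with IFN.

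Most tested genes passed the test, so a call says little alone. With IFN 12608 of 16139 genes passed at an adjusted p below 0.05 (78.1%), 6078 as rises (37.7%) and 6530 as falls (40.5%), with a median change of -0.05 over all tested genes. Against EPZ-5676, 10373 of 15471 genes passed (67.0%), 5178 as rises (33.5%) and 5195 as falls (33.6%), with a median of -0.01. On the same 15471 genes the comparison with edited cells without IFN called 78.7%, 39.1% as rises and 39.6% as falls. When a change of at least 2-fold was also required, 39.1% of the 16139 genes were called, 15.6% as rises and 23.5% as falls. The 4 libraries with IFN did not overlap the 4 without in 72.0% of genes, lying above in 34.7% and below in 37.3%. The counts and medians of the lists below stand beside these values.

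At the receptors the changes were mixed. Of 9 interferon receptor and Janus kinase genes 4 rose and 3 fell, with a median of 0.10. IFNGR2, a chain of the type II receptor, stood at 1.72, 1.71, 1.78 and 0.964 CPM without IFN and 6.26, 9.58, 10.1 and 9.67 CPM with it, a change of 2.52 (SE 0.21, adjusted p = 1.16e-07) that was 1.71 against EPZ-5676. TYK2, a kinase of the type I receptor, changed by 1.04 (SE 0.12, adjusted p = 3.68e-06), and by 0.36 against EPZ-5676. The libraries of both genes did not overlap between the states.

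STAT and IRF factors mostly rose. Of 15 tested, 13 rose and 1 fell, with a median of 1.21, and against EPZ-5676 13 rose and 1 fell, with a median of 1.35. IRF1 stood at 40.5, 37.6, 39 and 37.6 CPM without IFN and 236, 245, 281 and 295 CPM with it, a change of 2.77 (SE 0.08, adjusted p = 5.02e-12). With IFN it was higher in both sg2 libraries than in both sg1 libraries, and against EPZ-5676 the change was 4.38. BATF2, a basic leucine zipper factor, stood at 1.84, 1.84, 1.68 and 1.4 CPM without IFN and 57.1, 59.7, 76.7 and 75.2 CPM with it, a change of 5.30 (SE 0.14, adjusted p = 2.3e-12). BATF3, of the same family, stood at 0.628, 0.726, 0.281 and 0.337 CPM without IFN and 4.18, 3.38, 4.25 and 4.32 CPM with it. The member that fell was STAT4, which transmits interleukin 12 signals, at -0.57, while against EPZ-5676 it was 0.80 and did not pass. Members such as STAT4, named because their list mostly moved the other way, were chosen after their values were seen.

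Inhibitors of the pathway had a lower median. Of 12 negative feedback genes 8 rose and 3 fell, with a median of 0.73 that was 0.21 against EPZ-5676. SOCS1, which blocks Janus kinases, stood at 9.26, 8.71, 10.5 and 6.41 CPM without IFN and 15.8, 13.8, 24.8 and 21.2 CPM with it. Its groups did not overlap, its change was 1.12 (SE 0.18, adjusted p = 7.16e-05), and against EPZ-5676, where it averaged 2.89 CPM, the change was 2.68. USP18, the protease that removes ISG15 from proteins, changed by 1.67 (SE 0.11, adjusted p = 6.58e-09). SOCS2, known for restraining growth hormone signals, fell from 15.1, 15.5, 15.2 and 17.9 CPM to 5.82, 4.94, 5.1 and 6.43 CPM, a change of -1.52 (SE 0.12, adjusted p = 5.5e-08).

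Guanylate-binding proteins and interferon-induced chemokines had the largest list medians against edited cells without IFN. Of 9 tested genes of the GTPase list 8 rose and 1 fell, with a median of 4.41, and 6 of 7 rose against EPZ-5676 with a median of 2.95. GBP4 stood at 1.17, 0.983, 1.03 and 1.01 CPM without IFN and 70.6, 65.3, 55.9 and 59.3 CPM with it, a change of 5.90 (SE 0.12, adjusted p = 1.44e-13). The EPZ-5676 files did not list GBP4, so the median of 2.95 leaves it out. The member that fell, RNF213, a large ubiquitin ligase, changed by -1.18 and differed from EPZ-5676 by 0.02 (adjusted p = 0.686). All 6 tested interferon-induced chemokines rose, with a median of 4.05. Against EPZ-5676 3 of them could be tested, with a median of 1.5, below that of the class I list. CXCL9 and CXCL11 were not listed in the EPZ-5676 files, so the medians of 4.05 and 1.5 cover different genes. CXCL11, another CXCR3 ligand, stood at 0.754, 0.641, 0.748 and 0.868 CPM without IFN and 86.5, 77.5, 62.2 and 58.2 CPM with it. CCL5, CCL7 and CCL8 were not tested, with 0, 0 and 2 counts over the 4 libraries with IFN.

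Of 10 neutrophil chemokines and related cytokines 8 rose and 1 fell, with a median of 1.32 (0.97 against EPZ-5676). CXCL3, a ligand of CXCR2, stood at 2.51, 2.69, 2.81 and 2.55 CPM without IFN and 11.3, 10.6, 12.8 and 13.1 CPM with it, a change of 2.18 (SE 0.13, adjusted p = 2.58e-09). CXCL6, a ligand of CXCR1 and CXCR2, changed by 2.00 (SE 0.13, adjusted p = 6.12e-09). Against EPZ-5676 the changes of these 2 genes were 1.76 and 0.99. IL1B, which encodes interleukin 1 beta, was the member that fell, at -1.15.

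The antiviral list was uneven. Of 35 tested genes 29 rose and 4 fell, with a median of 1.95, and against EPZ-5676 23 of 27 rose and 0 fell, with a median of 1.91. TRIM22, a restriction factor, stood at 0.335, 0.128, 0.0468 and 0.145 CPM without IFN and 20, 20, 16.6 and 16.7 CPM with it, a change of 6.74 (SE 0.25, adjusted p = 1.25e-10) that was 8.84 against EPZ-5676. IFI44L had 1 count over the 4 libraries without IFN and 289 over the 4 with it, a ratio after scaling of 131.8 (95% exact interval for counting error alone, 23.47 to 5223). Both genes were below 1 CPM in every edited library without IFN.

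IFIT1, an RNA-binding antiviral protein much used as a marker of type I interferon, did not pass the test over both guides. It stood at 5.32, 5.6, 6.83 and 7.28 CPM without IFN and 7.45, 7.5, 7.1 and 6.39 CPM with it, so that the groups overlapped, with a difference of 0.19 (SE 0.12, adjusted p = 0.174). With sg1 it rose by 0.45 (adjusted p = 0.011), and with sg2 the difference was -0.06 (adjusted p = 0.694). The guide difference of -0.52 (SE 0.20, adjusted p = 0.0649) did not pass. Against EPZ-5676 the difference was -0.24 (adjusted p = 0.0615). The 4 members that fell were EIF2AK2, the kinase PKR, at -1.04, HERC5, a ligase for ISG15, at -0.47, SAMD9 at -1.15 and ZC3HAV1, a zinc finger antiviral protein, at -0.67. Against EPZ-5676 their values were -0.02, 0.06, 1.01 and -0.15, of which that of SAMD9 passed, as a rise.

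Of 7 tested nucleic acid sensors and adaptors 4 rose and 2 fell, with a median of 0.47. IFIH1, the sensor of long double-stranded RNA, stood at 7.71, 8.97, 10.2 and 11.8 CPM without IFN and 27.9, 25.9, 24.1 and 21.9 CPM with it, a change of 1.38 (SE 0.13, adjusted p = 4.56e-07) that was 3.75 against EPZ-5676. TMEM173, which encodes STING, changed by 1.26 (SE 0.22, adjusted p = 0.000111), but by 0.26 against EPZ-5676 (adjusted p = 0.289). The members that fell were DDX58, which encodes RIG-I, at -0.26 and its adaptor MAVS at -0.71.

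Class I antigen presentation rose in 17 of 19 tested genes and fell in 0, with a median of 3.02. Against EPZ-5676 16 of 17 rose, with a median of 2.37. B2M, the light chain, stood at 87.6, 81.3, 83.5 and 91.1 CPM without IFN and 492, 467, 354 and 359 CPM with it, a change of 2.28 (SE 0.10, adjusted p = 3.32e-10). HLA-B, a heavy chain, stood at 4.15, 4.02, 4.82 and 2.6 CPM without IFN and 81.2, 88.7, 108 and 114 CPM with it, a change of 4.65 (SE 0.16, adjusted p = 3.59e-11). Against EPZ-5676 the changes of the chains were 1.95 and 6.15. With IFN the light chain was higher in the sg1 libraries and the heavy chain in the sg2 libraries. HLA heavy chain genes are near-identical copies, so how reads were divided among them is uncertain. PSMB9, a subunit of the immunoproteasome, stood at 0.126, 0.128, 0.187 and 0.145 CPM without IFN and 3.11, 3.07, 2.74 and 4.05 CPM with it.

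Few class II genes could be tested. Of 15 listed genes 5 had enough counts to test, and 3 of these rose, with a median of 1.83 (1.72 against EPZ-5676, over 3 genes). CIITA, the activator of class II transcription, had 1 count over the 4 libraries without IFN and 46 over the 4 with it, a ratio after scaling of 20.98 (95% exact interval for counting error alone, 3.581 to 846.3). CIITA passed with sg1 (adjusted p = 0.0288) and not with sg2 (adjusted p = 0.0548). IFI30, a thiol reductase of endosomes, stood at 71.6, 74.8, 71.4 and 59.6 CPM without IFN and 260, 271, 365 and 377 CPM with it, and differed from EPZ-5676 by 1.70 (adjusted p = 2.27e-10). HLA-DRA, a class II chain, had 0 counts without IFN and 4 with it over 4 libraries each. The class I genes HLA-F and HLA-G and the complement genes C4A and C4B were also at 0 CPM in every guide library. The ribosomal gene RPS18 was at only 4.05 to 5.21 CPM in edited libraries without IFN. These genes were named after their values were seen. Whether reads of such genes were lost in counting was not tested, so a level of 0 was not read as absence of expression.

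Of 15 tested checkpoint and tryptophan genes 11 rose and 1 fell, with a median of 1.33 (0.69 against EPZ-5676). CD274, which encodes the checkpoint ligand PD-L1, stood at 0.586, 0.854, 1.12 and 1.06 CPM without IFN and 15.7, 13.8, 14 and 15.6 CPM with it, a change of 4.04 (SE 0.16, adjusted p = 1.04e-10) that was 4.90 against EPZ-5676. IDO1, the first enzyme of the kynurenine route of tryptophan breakdown, had 1 count over the 4 libraries without IFN and 4668 over the 4 with it, where its levels were 25, 24.6, 23.6 and 22 CPM. The ratio after scaling was 2129 (95% exact interval for counting error alone, 381.8 to 84090). LGALS9, which encodes galectin-9, stood at 0, 0.0427, 0.14 and 0.0482 CPM without IFN and 1.13, 1.34, 1.62 and 1.72 CPM with it. The member that fell was C10orf54, which encodes the checkpoint protein VISTA. It stood at 10 to 11.6 CPM without IFN and 3.38 to 4.42 CPM with it in edited cells, and its change against EPZ-5676 was -0.61.

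Of 21 tested cell death genes 19 rose and 0 fell, with a median of 1.31 (0.73 against EPZ-5676). APOL1, a pore-forming apolipoprotein, stood at 3.06, 3.76, 3.46 and 2.84 CPM without IFN and 69, 72.5, 73.6 and 76.3 CPM with it, a change of 4.47 (SE 0.09, adjusted p = 2.14e-13). APOL4, of the same family, stood at 0.293, 0.513, 0.936 and 0.578 CPM without IFN and 14.2, 13.2, 12.4 and 11.4 CPM with it. In neither gene did the groups overlap, and against EPZ-5676 APOL1 changed by 7.66.

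**Figure D2:**
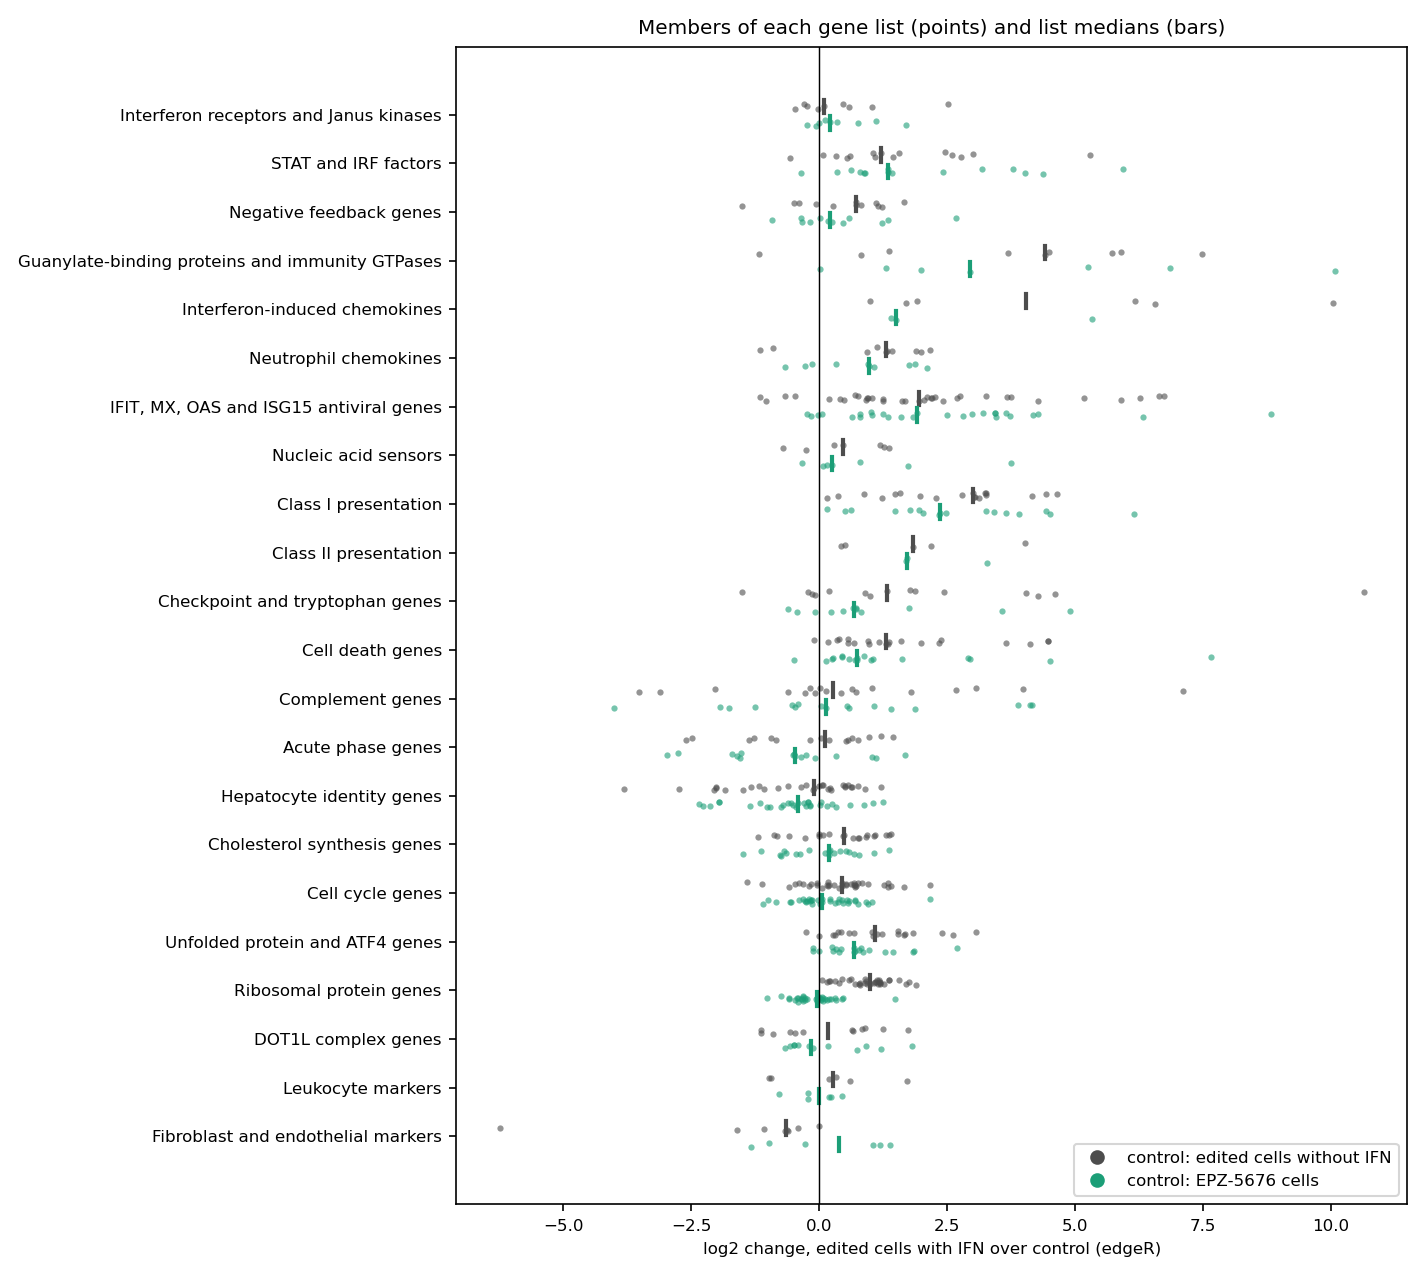
Log2 change in edited cells with IFN for the members of each list, against edited cells without IFN (grey) and against EPZ-5676 cells (green), where points are genes and bars are list medians. The guanylate-binding protein list has medians of 4.41 and 2.95, and the class I list of 3.02 and 2.37. The acute phase list moves from 0.12 to -0.47. Green medians leave out members that the EPZ-5676 files do not list, such as GBP4.

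Genes made by liver cells moved in both directions. Of 18 tested complement genes 8 rose and 5 fell, with a median of 0.28. SERPING1, the inhibitor of the C1 proteases, stood at 41.8, 45.2, 47.2 and 40.4 CPM without IFN and 625, 668, 726 and 736 CPM with it, a change of 3.98 (SE 0.08, adjusted p = 1.12e-13) that was 4.12 against EPZ-5676. MASP2, a protease of the lectin pathway, had 0 counts over the 4 libraries without IFN and 97 over the 4 with it, at least 14.74-fold higher against a floor of 3 counts over the group. In EPZ-5676 cells MASP2 averaged 1.65 CPM, and against them edited cells with IFN differed by -1.76 (adjusted p = 0.000392), so that its direction turned with the control.

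Of 16 tested acute phase genes, whose products liver cells secrete in inflammation, 7 rose and 6 fell, with a median of 0.12. Against EPZ-5676 3 rose and 9 fell, with a median of -0.47. LBP, which binds bacterial lipopolysaccharide, stood at 21.2, 19.7, 19.9 and 20.9 CPM without IFN and 3.07, 3.58, 3.36 and 3.44 CPM with it, a change of -2.60 (SE 0.08, adjusted p = 1.76e-11) that was -2.75 against EPZ-5676. SAA4, a constitutive serum amyloid, changed by -2.48 (SE 0.25, adjusted p = 7.93e-07), but by -0.48 against EPZ-5676 (adjusted p = 0.173).

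Of 31 hepatocyte identity genes 10 rose and 13 fell, with a median of -0.11, and against EPZ-5676 6 rose and 19 fell, with a median of -0.40. APOB, the structural protein of very low density lipoprotein, stood at 8210, 8210, 8690 and 9590 CPM without IFN and 1490, 1500, 1130 and 1090 CPM with it, a change of -2.73 (SE 0.11, adjusted p = 7.44e-11) that was -1.95 against EPZ-5676. CYP3A5, a drug-metabolising enzyme, stood at 11.7, 11.8, 14.1 and 13.6 CPM without IFN and 0.987, 0.895, 1.09 and 0.611 CPM with it, a change of -3.82 (SE 0.16, adjusted p = 1.68e-10), and of -1.36 against EPZ-5676. The summed level of the list was 16600 to 18500 CPM without IFN and 12200 to 12300 CPM with it, so liver markers were high in every edited library. APOB was the largest part of this sum without IFN. Other abundant members, named after their values were seen, were higher with IFN. ALB was at 2080 to 2620 CPM without IFN and 2950 to 3530 CPM with it, and TF at 1580 to 1890 and 3150 to 3280 CPM. The lower sum therefore does not describe the list as a whole.

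Markers of other cell types were also measured. Of 6 tested leukocyte markers 2 rose and 1 fell, with a median of 0.26. PTPRC, CD2, MS4A1 and GNLY were at 0 in every edited library of both states. The summed level of 13 leukocyte markers was 26.4 to 29.6 CPM without IFN and 18.1 to 20.6 CPM with it. LCP1, an actin-bundling protein, made up most of it, at 21.7, 20.2, 21.3 and 23.9 CPM without IFN and 11.5, 12.4, 10.4 and 11.1 CPM with it. The summed level of 11 fibroblast and endothelial markers was 99.8 to 110 CPM without IFN and 62.5 to 76.3 CPM with it. Of these markers KDR was at 0 in both states, and CDH5 with IFN only. Of 8 tested, 0 rose and 4 fell, with a median of -0.64 (0.39 against EPZ-5676). PDGFRA, a growth factor receptor of mesenchymal cells, made up most of this sum, at 69.5 to 79.2 CPM without IFN and 41.6 to 52.4 CPM with it. The endothelial adhesion protein PECAM1 was at 15.7 to 18.3 and 6.91 to 10.1 CPM, and the collagen chain COL1A1 at 7.62 to 12 and 8.63 to 12.1 CPM; these 3 were named after their values were seen. CORO1A, a coronin of leukocytes, rose by 1.72, though with a difference of 0.44 against EPZ-5676 (adjusted p = 0.237). CDH5, an endothelial cadherin, had 24 counts over the 4 libraries without IFN and 0 over the 4 with it. All libraries are labelled as the HuH-7 line, so these levels were not read as numbers of other cell types. The part of these markers in the results was not tested.

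Of the lists of stress and growth, unfolded protein and ATF4 genes rose in 18 of 20 cases and fell in 0, with a median of 1.09 (0.69 against EPZ-5676). SDF2L1, a cofactor of endoplasmic reticulum chaperones, stood at 6.58, 7.39, 6.83 and 3.76 CPM without IFN and 39.7, 41.6, 59.3 and 67.4 CPM with it, a change of 3.08 (SE 0.21, adjusted p = 1.07e-08) that was 1.84 against EPZ-5676. DDIT4, an inhibitor of mTORC1, changed by 2.61 (SE 0.12, adjusted p = 3.63e-10), and by 0.78 against EPZ-5676. Of 36 cell cycle genes 24 rose and 7 fell, with a median of 0.44 that was 0.06 against EPZ-5676. MYC, a growth factor-responsive transcription factor, stood at 33.9, 33.7, 32.7 and 32.5 CPM without IFN and 138, 138, 159 and 162 CPM with it, a change of 2.17 (SE 0.07, adjusted p = 1.68e-11) that was 2.16 against EPZ-5676. MCM7, of the replicative helicase, changed by 1.66 and by 0.71. Of 21 cholesterol synthesis genes 12 rose and 5 fell, with a median of 0.48, and against EPZ-5676 10 rose and 9 fell, with a median of 0.19. The enzyme MVD and the regulator SREBF1 rose by 1.41 and 1.37, and MVD by 0.79 against EPZ-5676.

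Ribosomal protein genes depended on the control. Of 35 genes 29 rose and 0 fell, with a median of 1, whereas against EPZ-5676 7 rose and 15 fell, with a median of -0.04. RPS2, of the small subunit, stood at 534, 555, 561 and 422 CPM without IFN and 1490, 1550, 1930 and 2010 CPM with it, but at a mean of 2000 CPM in EPZ-5676 cells, so that a change of 1.75 (SE 0.11, adjusted p = 4.9e-09) stood beside one of -0.23 (adjusted p = 0.0396). RPS9, of the same subunit, stood at 2.17 to 2.95 CPM without IFN and 6.95 to 15.8 CPM with it, and its difference from EPZ-5676 was 1.48 (adjusted p = 9.72e-06). RPS9 was far below RPS2, with 237 against 46490 counts over the 4 edited libraries without IFN. Its changes therefore rest on few reads, and the cause of its low count was not tested.

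Of 12 genes for DOT1L and its elongation partners 6 rose and 6 fell, with a median of 0.17 (-0.16 against EPZ-5676). MLLT1, a reader of acylated histones, stood at 44.5, 44.6, 39.8 and 34.4 CPM without IFN and 87, 90.8, 104 and 106 CPM with it, and changed by 1.25 and, against EPZ-5676, by 1.21. MLLT6, of the AF10 family, stood at 2.76, 2.26, 3.46 and 2.02 CPM without IFN and 2.71, 11.7, 8.53 and 12.2 CPM with it, a change of 1.74 (SE 0.37, adjusted p = 0.000739), and its groups overlapped at IFN sg1 replicate 1. MLLT6 passed with sg2 (adjusted p = 0.0324) and not with sg1 (adjusted p = 0.0779).

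Of the 8 largest rises, 3 were CXCL9, IDO1 and GBP5, and the others, from outside the lists, were SMTNL1, ANKRD36BP1, IDI2, MSMP and SLC18A2. Exons of ANKRD36BP1 overlap those of SFT2D2, and exons of IDI2 those of GTPBP4 and IDI2-AS1. Exons of MSMP overlap those of RGP1, and exons of SLC18A2 those of PDZD8. Reads from the shared stretches of these genes cannot be told apart, and the length of those stretches was not measured. SLC18A2, a vesicular monoamine transporter, stood at 0.0419, 0, 0.0936 and 0.145 CPM without IFN and 15.7, 15, 10 and 9.26 CPM with it. In EPZ-5676 cells, however, SLC18A2 averaged 23.7 CPM and ANKRD36BP1 11.2 CPM, and edited cells with IFN differed from them by -0.95 and -0.63. MSMP differed by 0.24 (adjusted p = 0.0918) and IDI2 by 0.38, while SMTNL1, at 0.443 CPM there, differed by 4.16.

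The largest falls were mostly of noncoding transcripts. KCNQ1OT1, a nuclear antisense RNA of an imprinted locus, stood at 1120, 1120, 1030 and 1090 CPM without IFN and 2.35, 2.22, 2.25 and 2.15 CPM with it, a change of -8.92 (SE 0.07, adjusted p = 1.33e-17) that was -2.74 against EPZ-5676. The others of the 8 largest falls were CIDEB, MIR3609, LINC00564, FLJ42393, ANP32A-IT1, SND1-IT1 and FAM133CP. FAM133CP changed by -7.33, but by -0.25 against EPZ-5676 (adjusted p = 0.803). CIDEB, a lipid droplet gene whose exons overlap those of LTB4R2 and NOP9, had 601 counts over the 4 libraries without IFN and 0 over the 4 with it. In all, 60 of the 14073 genes with at least 10 counts in each edited library without IFN had 0 counts in all 6 guide libraries with IFN.

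By annotated type, the median change was -5.91 over 300 microRNA genes, -1.59 over 314 lincRNA genes and -1.23 over 394 antisense genes, against 0.08 over 13527 protein-coding genes. Against EPZ-5676, where 69, 247, 349 and 13052 of these genes could be compared, the medians were -0.78, -0.32, -0.32 and 0.02. The part of library content in these falls was not tested. Of the named falls that also passed against EPZ-5676, FMO1, a flavin monooxygenase, had the largest difference there. FMO1 stood at 5.36, 5.38, 4.86 and 6.07 CPM without IFN and 0.126, 0.061, 0.127 and 0.136 CPM with it, a change of -5.55 (SE 0.23, adjusted p = 1.23e-10), and its change against EPZ-5676, where it averaged 2.28 CPM, was -4.34.

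**Figure D3:**
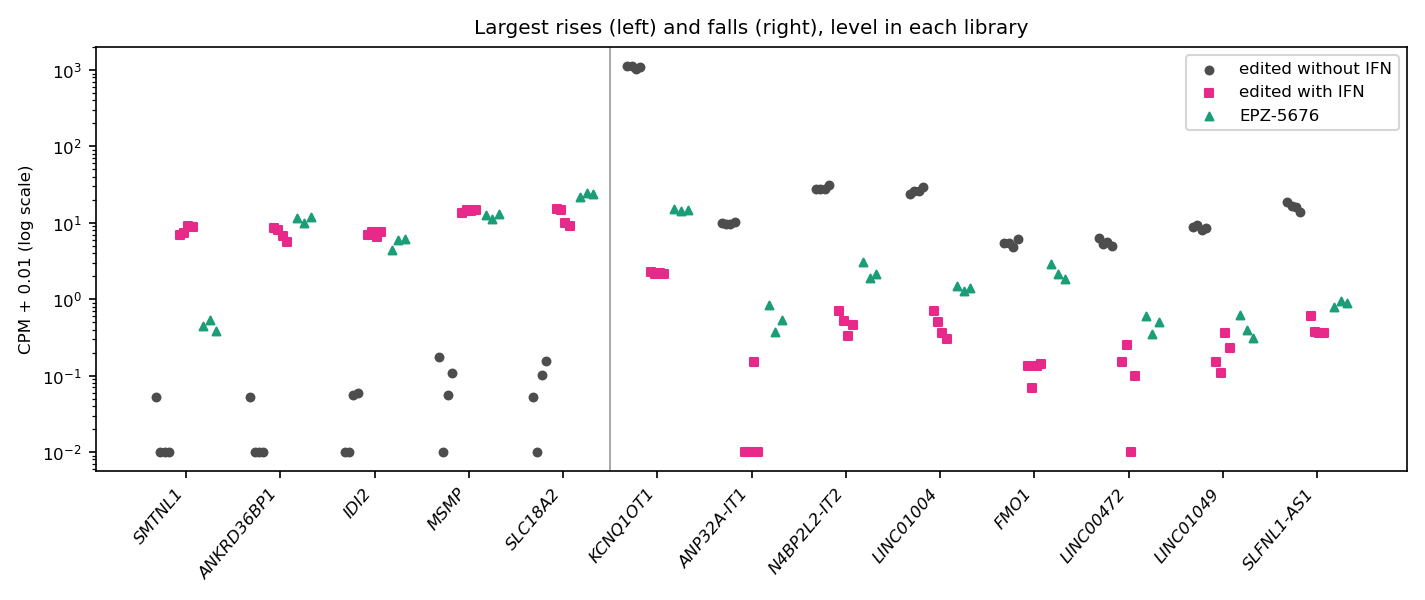
Level of the named largest rises outside the lists (left) and of the largest falls that also passed against EPZ-5676 (right) in each library, as CPM + 0.01 on a log axis. SLC18A2 averages 23.7 CPM with EPZ-5676, above edited cells with IFN, and FMO1 averages 2.28 CPM, between the edited cells without and with IFN.

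Both guides gave a response, and they were apart in detail. With sg1 11592 genes passed (71.8%), 35.8% as rises and 36.0% as falls, and with sg2 12372 passed (76.7%), 36.8% as rises and 39.8% as falls. Both guides called a rise in 4976 genes and a fall in 5091, and opposite directions in 181. Across the 16139 genes the changes of the guides had a Pearson r of 0.90, a description only, since genes are not replicates and both guides share the difference in library content. The guide difference itself passed in 5157 genes (32.0%), with a larger rise or smaller fall with sg2 in 2345 (14.5%) and the reverse in 2812 (17.4%). Its median size among these was 0.50, and 289 were of 1 or more. The count was higher without sg2 replicate 1, and lower when any other single edited library was left out. Each of these fits leaves 1 library in a group. The replicates of sg2 without IFN were those that differed most.

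Several interferon genes differed between the guides. CXCL10 rose by 6.37 with sg1 and 5.99 with sg2, a difference of -0.38 (SE 0.09, adjusted p = 0.0076). B2M rose by 2.51 and 2.03, a difference of -0.48 (SE 0.08, adjusted p = 0.0012). Both rose more with sg1. IFI30 rose more with sg2, by 0.64 (SE 0.10, adjusted p = 0.000607), as did IRF1, by 0.29 (SE 0.08, adjusted p = 0.0128), though without sg1 replicate 1 the IRF1 difference was 0.23 (adjusted p = 0.0873). XAF1, a binder of the apoptosis inhibitor XIAP, stood at 0.419, 0.342, 0.842 and 0.819 CPM without IFN and 13.1, 14.4, 9.87 and 9.12 CPM with it, and rose by 5.17 with sg1 and 3.51 with sg2, a difference of -1.66 (SE 0.35, adjusted p = 0.00338). GBP5, CXCL9 and WARS did not pass, with differences of -0.25 (SE 0.16), -0.59 (SE 0.60) and 0.01 (SE 0.08).

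Beyond these, ribosomal protein genes rose more with sg2 in 22 of 35 cases and less in 1, with a median difference of 0.36, against -0.01 over all genes. C19orf70, a subunit of the mitochondrial MICOS complex, stood at 8.67, 8.2, 5.43 and 3.76 CPM without IFN and 15.8, 16.2, 23.9 and 26.7 CPM with it, a guide difference of 1.53 (SE 0.20, adjusted p = 0.000391). The sg2 libraries were the lower ones without IFN and the higher ones with it. C4orf48 differed by 1.67, and PDF, the mitochondrial peptide deformylase, by 1.92, which without sg1 replicate 1 was 1.5 (adjusted p = 0.0555).

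The rule for guide differences named 4 negative ones, those of DDX24, LOC101928020, XAF1 and SI. LOC101928020 and SI fell further with sg2, while DDX24 and XAF1 rose more with sg1. DDX24, an RNA helicase, stood at 1.97, 2.35, 4.26 and 2.31 CPM without IFN and 44.8, 40.4, 3.41 and 4.12 CPM with it, so that both sg1 libraries with IFN stood above all other edited libraries. In sgNeg2 cells DDX24 was at 15 and 2.67 CPM without IFN, where the replicates were apart, and 3.78 and 3.26 CPM with it. Its guide difference of -4.11 (SE 1.06, adjusted p = 0.0273) did not pass when any of the 8 edited libraries except IFN sg1 replicate 2 was left out (adjusted p 0.0568 to 0.114). SI, the intestinal sucrase-isomaltase, stood at 11.9, 11.6, 13.5 and 15.4 CPM without IFN and 1.72, 1.93, 0.998 and 0.679 CPM with it, and fell by 2.68 with sg1 and by 4.09 with sg2, a guide difference of -1.41 (SE 0.33, adjusted p = 0.0061). LOC101928020 fell by 5.15 and by 6.87, a guide difference of -1.72 (SE 0.50, adjusted p = 0.0187), and its change of -5.79 over both guides was -1.08 against EPZ-5676 (adjusted p = 0.0572). The LOC101928020 guide difference did not pass without IFN sg1 replicate 2 (adjusted p = 0.0977) or IFN sg2 replicate 2 (adjusted p = 0.12).

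**Figure D4:**
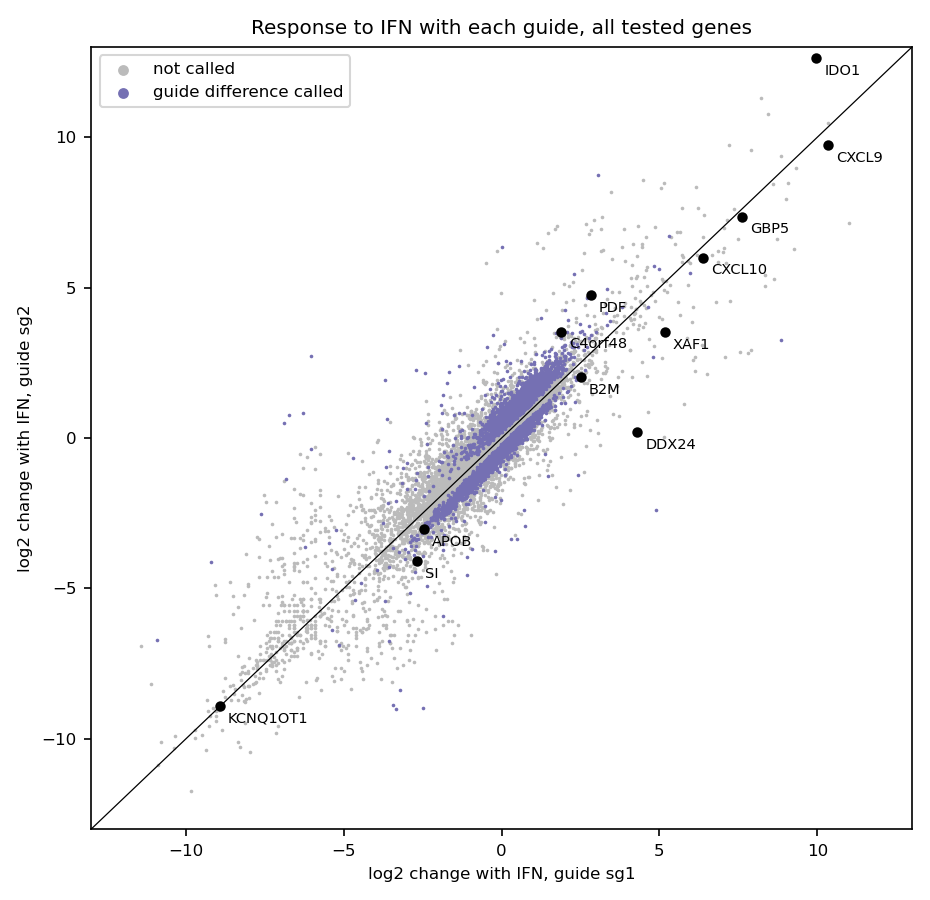
Log2 change with IFN with guide sg1 (x axis) and sg2 (y axis) for each of the 16139 tested genes, with called guide differences in purple, the line of equal change, and 12 named genes in black. Most genes lie near the line, and DDX24 lies off it, at 4.30 with sg1 and 0.19 with sg2.

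Whether edited cells responded differently from sgNeg2 cells was tested as the difference of their responses, in which the library content differs between the states in both genotypes, though not by the same amount. Without IFN small RNA genes took 5.31 to 5.93% of counts in sgNeg2 libraries, against 3.26 to 5.43% in edited ones. KCNQ1OT1, low in all libraries of low content, had a difference of responses of -0.79 (SE 0.10, adjusted p = 0.00326), and of -0.66 (adjusted p = 0.0501) with the IFN libraries thinned to a common depth. The difference passed in 70 genes (0.434%), 53 with a more positive change in edited cells, as a larger rise or a smaller fall or with opposite signs (0.328%) and 17 with a more negative one (0.105%). The split was 42 and 34 under RLE scaling, 32 and 34 after the same thinning, and 34 and 49 with histone and small RNA genes kept, which shifted the differences of the 12 named genes by a median of -0.10, so the balance of directions changed with these choices. The count was 400 with DESeq2 and 1170 with each guide as a group of its own. It was 18 to 32 without any 1 of the 4 sgNeg2 libraries and 175 without IFN sg1 replicate 1. Of the 70, 22 rose and 31 fell in both genotypes, and 17 had opposite signs.

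Some genes had a smaller rise in edited cells and a higher level there before IFN. ENTPD1, which encodes the ectoenzyme CD39, stood at 11.6, 12, 10.9 and 14 CPM in edited and 2.65 and 2.58 CPM in sgNeg2 cells without IFN, and at 47.6, 48.3, 39.7 and 41.9 against 42.6 and 41.5 CPM with it, a difference of responses of -2.13 (SE 0.18, adjusted p = 0.000187). BST2, the virus tether tetherin, stood at 6.91, 6.41, 7.11 and 7.04 CPM in edited and 1.78 and 1.09 CPM in sgNeg2 cells without IFN, and at 218, 229, 268 and 284 against 243 and 232 CPM with it, a difference of -2.19 (SE 0.23, adjusted p = 0.000469). In both genes edited cells were higher without IFN, and the genotypes overlapped with it.

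GBP5 was higher in edited cells in both states. It had 3 counts and 1 count in the sgNeg2 libraries without IFN (0.137 and 0.0453 CPM) and 110 and 108 CPM with IFN, against 1.84 to 2.36 and 367 to 378 CPM in edited cells. The difference of responses was -2.69 (SE 0.36, adjusted p = 0.00326), and without sgNeg2 replicate 2 it was -2.12 (adjusted p = 0.214). Of the 9 tested genes of the GTPase list, 2 had a smaller rise in edited cells and 0 a more positive change, with a median difference of -1, and the second was GBP1, named after its value was seen, at -0.86 (adjusted p = 0.0276). LGALS3BP, a secreted glycoprotein, stood at 26, 29.2, 28.5 and 23.4 CPM in edited and 7.75 and 6.8 CPM in sgNeg2 cells without IFN, and at 380, 394, 520 and 545 against 375 and 373 CPM with it. Its difference was -1.58 (SE 0.22, adjusted p = 0.0042), and -1.49 (adjusted p = 0.0666) without sgNeg2 replicate 2. APOL1 and MYC had differences of -1.33 and -0.82, and neither passed without sgNeg2 replicate 1 (adjusted p = 0.0938 and 0.0753) or without sgNeg2 replicate 2 (adjusted p = 0.0666 for both). CXCL9, CXCL10, WARS and IRF1 did not pass, with differences of -0.84 (SE 0.70), -0.22 (SE 0.14), -0.37 (SE 0.09) and -0.37 (SE 0.13).

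Of 16 acute phase genes 7 had a more positive change in edited cells than in sgNeg2 cells and 0 a more negative one, with a median difference of 0.84, against 0.07 over all genes and 0.328% of genes with a more positive change. By their fitted values SAA1, SAA2 and LBP had smaller falls in edited cells and A2M a larger rise, and FGA, FGB and FGG had opposite signs in the genotypes. FGB, a fibrinogen chain, stood at 37.7, 33.3, 40.6 and 51.1 CPM without IFN and 67.1, 60, 58.1 and 56.9 CPM with it in edited cells, and at 72.1 and 67.7 and then 28.7 and 27.9 CPM in sgNeg2 cells. The responses were 0.57 and -1.31, a difference of 1.88 (SE 0.19, adjusted p = 0.00044), so that edited cells were below sgNeg2 cells without IFN and above them with it. Against EPZ-5676, where FGB averaged 172 CPM, edited cells with IFN differed by -1.54. The other chains FGA and FGG, named after their values were seen, had differences of 1.78 (SE 0.17, adjusted p = 0.00029) and 1.31 (SE 0.14, adjusted p = 0.000693). LBP stood at 19.7 to 21.2 CPM in edited and 47.4 and 45.2 CPM in sgNeg2 cells without IFN, and at 3.07 to 3.58 against 3.16 and 2.83 CPM with it, a smaller fall in edited cells by 1.35 (SE 0.14, adjusted p = 0.000515).

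Of the other named genes, NYNRIN, a gene related to retroelements, stood at 21.9, 21.2, 21.1 and 17.5 CPM without IFN and 8.82, 8.2, 8.46 and 8.6 CPM with it in edited cells, and at 10.9 and 9.97 and then 1.52 and 1.1 CPM in sgNeg2 cells, a difference of 1.73 (SE 0.20, adjusted p = 0.00105). CYBRD1, a ferric reductase, stood at 10.6, 10.4, 11.3 and 10.7 CPM without IFN and 5.42, 6.39, 5.55 and 5.77 CPM with it in edited cells, and at 6.57 and 5.21 and then 1.14 and 0.777 CPM in sgNeg2 cells. Its difference was 1.72 (SE 0.23, adjusted p = 0.00339), and 1.37 (adjusted p = 0.0601) without IFN sgNeg2 replicate 2. Both genes fell in both genotypes and fell further in sgNeg2 cells. DENND1C, an exchange factor for RAB35, had a difference of 1.96 (SE 0.32, adjusted p = 0.013) that did not pass without any 1 of the 4 sgNeg2 libraries (adjusted p 0.0855 to 0.131), and its change of 5.00 with IFN stood beside one of -0.49 against EPZ-5676.

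**Figure D5:**
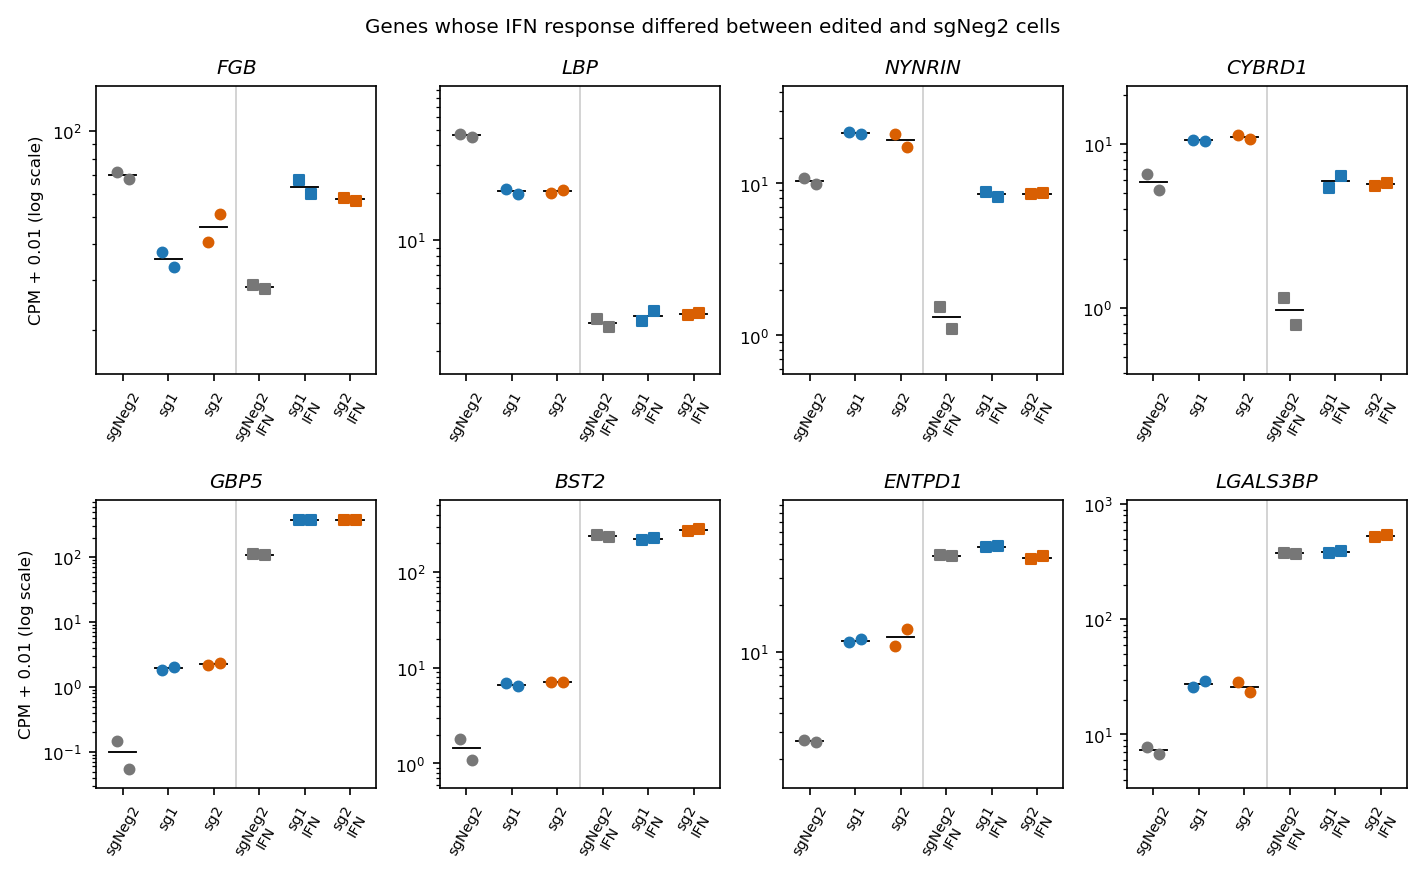
Level of 8 genes whose response to IFN differed between edited and sgNeg2 cells, in each library (CPM + 0.01 on a log axis), where bars are means of 2 libraries, circles are without and squares with IFN. FGB falls in sgNeg2 cells, from 72.1 and 67.7 to 28.7 and 27.9 CPM, and is higher with IFN in edited cells.

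Exons of 28 of the 87 named genes overlap those of another gene in GENCODE, among them WARS (WDR25), IRF1 (C5orf56), HLA-B (HLA-C), PSMB9 (PSMB8), KCNQ1OT1 (KCNQ1), DDX24 (OTUB2) and ENTPD1 (ENTPD1-AS1). An overlap of any length on either strand was counted. The sources used here do not state whether reads were counted by strand, so reads from the shared stretches of such pairs cannot be told apart. The share of reads that falls there was not measured.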

How the data were processed

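Gene expression was measured by RNA sequencing of total RNA. Each library came as a deposited list of gene symbols with whole-number read counts, which the authors did not normalize as far as the values show. The submitters' processing notes name HISAT2 2.2.1, SAMtools 1.9, Trim Galore, hg38 and DESeq2 1.36.0, with no role or order. They do not name the counter, annotation or strand setting. The guide files list 26457 symbols and the drug files 15899.

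From the deposited counts, 95 histone and 536 small RNA symbols were removed. Low genes were dropped by edgeR's filterByExpr at its settings of 10 for the minimum count and 15 for the minimum total. After TMM scaling, contrasts were tested with the quasi-likelihood F test of edgeR 4.0.16 in R 4.3.3, with Benjamini-Hochberg adjustment over all genes tested and a threshold of 0.05. All 12 guide libraries entered the fit, as 4 groups of genotype and IFN, or as 6 groups for the guides apart. The comparison with EPZ-5676 used a joint fit on genes listed in all files, with its own scaling. CPM come from the 12-library scaling, and levels in EPZ-5676 cells from the joint one. Groups follow the labels.

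Genes were named by rule: a panel of 13; the 2 most changed called members of each list with at least 3 calls; the 8 largest rises and falls with at least 5 CPM, no overlap between libraries and calls with both guides; the 8 largest such falls also called against EPZ-5676; and the 4 largest differences in each direction between guides and between genotypes. Members and lists were chosen with earlier results of these data known. Of 87 named genes, 60 rose, 26 fell and 1 did not pass; 2 of them are not reported here. Promoters were matched to RefSeq by symbol or synonym. Alternatives covered scaling, test, filter, left-out genes, replicate block, depth, grouping, control and each library. Leaving out genes with overlapping exons was added after seeing the data.

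On counts simulated for the change in edited cells (15577 genes), 79.6% of 2-fold and 92.8% of 4-fold changes were recovered, and 5.62% of calls were false. For the difference between guides (15577 genes) these were 40.2%, 82.8% and 6.92%, and for the difference from sgNeg2 (15553 genes) 60%, 85.9% and 4.7%. Only a small part of the genes was changed in each simulation. All libraries otherwise shared the same mean for each gene, with no guide effect and no difference in library content. In the data most tested genes passed, so these rates describe the simulated setting and do not carry over. Ratios of low counts carry exact intervals and floors that cover counting error only.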

Additional observations from a re-analysis of the deposited data

Results flagged for a closer look

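Among the 87 named genes, 174 groups of 4 edited libraries with or without IFN were examined for a library far from the other 3, and 20 groups held one. Chance alone gives about 1 in 20 groups where values vary freely. In 8 of the 20 the other 3 libraries were at 0, so that 1 library with counts is always far from them and that rate does not apply, and each group joins the libraries of both guides. The low libraries were GBP5 in IFN sg2 replicate 2 (367 CPM, the others 377 to 378), CXCL9 in sg1 replicate 2 (0.171 CPM, the others 0.327 to 0.337), IFNGR2 in sg2 replicate 2 (0.964 CPM, the others 1.71 to 1.78), IFNGR2 in IFN sg1 replicate 1 (6.26 CPM, the others 9.58 to 10.1), TYK2 in sg2 replicate 2 (25.9 CPM, the others 39 to 39.2), BATF3 in IFN sg1 replicate 2 (3.38 CPM, the others 4.18 to 4.32), MCM7 in sg2 replicate 2 (280 CPM, the others 329 to 338) and FMO1 in IFN sg1 replicate 2 (0.061 CPM, the others 0.126 to 0.136). The high ones were SOCS2 in sg2 replicate 2 (17.9 CPM, the others 15.1 to 15.5), N4BP2L2-IT2 in sg2 replicate 2 (31 CPM, the others 27.8 to 28.3), SLFNL1-AS1 in IFN sg1 replicate 1 (0.609 CPM, the others 0.362 to 0.366) and DDX24 in sg2 replicate 1 (4.26 CPM, the others 1.97 to 2.35). In the remaining genes the other 3 libraries were at 0: CIITA in sg2 replicate 2 (0.0482 CPM), IDO1 in sg1 replicate 1 (0.0419 CPM), IFI44L in sg1 replicate 2 (0.0427 CPM), SMTNL1 in sg1 replicate 1 (0.0419 CPM), ANKRD36BP1 in sg1 replicate 1 (0.0419 CPM), MIR3609 in IFN sg1 replicate 1 (0.021 CPM), FLJ42393 in IFN sg1 replicate 2 (0.0407 CPM) and ANP32A-IT1 in IFN sg2 replicate 1 (0.145 CPM).

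The change with IFN differed between the guides in 28 of the named genes reported here by the edgeR test. Over all 16139 tested genes the share with a guide difference was 32.0%. The naming rule itself took the 4 largest called guide differences in each direction, so the count is partly set by that choice. As log2 differences of sg2 minus sg1, the positive ones were IRF1 (0.29), SOCS1 (0.73), DOT1L (0.41), TYK2 (0.55), BATF2 (0.63), BATF3 (1.31), IFI30 (0.64), MVD (0.62), MYC (0.27), MCM7 (0.39), SDF2L1 (1.03), RPS2 (0.52), MLLT1 (0.51), SND1-IT1 (4.17), PDF (1.92), C4orf48 (1.67), C19orf70 (1.53) and LGALS3BP (0.54). The negative ones were CXCL10 (-0.38), B2M (-0.48), IFIH1 (-0.62), APOB (-0.58), LINC01004 (-1.02), DDX24 (-4.11), LOC101928020 (-1.72), XAF1 (-1.66), SI (-1.41) and FGB (-0.51). Some of these differences did not pass once a library was left out. These libraries were IFN sg1 replicate 1 for DDX24, SOCS1, DOT1L, TYK2, IFIH1, MVD, RPS2, SND1-IT1, LINC01004 and FGB (adjusted p 0.0547 to 0.179), IFN sg1 replicate 2 for LOC101928020, SOCS1, TYK2, BATF3, IFIH1 and SND1-IT1 (adjusted p 0.0506 to 0.11), IFN sg2 replicate 1 for DDX24, SOCS1, BATF3, SND1-IT1 and LINC01004 (adjusted p 0.051 to 0.119) and IFN sg2 replicate 2 for DDX24, LOC101928020, SOCS1, TYK2, BATF3, IFIH1, MVD, RPS2, LINC01004 and FGB (adjusted p 0.0553 to 0.13). They were also sg1 replicate 1 for PDF, DDX24, IRF1, SOCS1, DOT1L, TYK2, BATF2, BATF3, IFIH1, MYC and LINC01004 (adjusted p 0.0555 to 0.122), sg1 replicate 2 for DDX24, SOCS1, TYK2, BATF2, BATF3, MVD, MYC, RPS2 and FGB (adjusted p 0.0544 to 0.119), sg2 replicate 1 for DDX24 and BATF3 (adjusted p 0.111 to 0.114) and sg2 replicate 2 for DDX24, SOCS1, BATF2 and BATF3 (adjusted p 0.0588 to 0.182). With the IFN libraries thinned to a common depth LOC101928020, SOCS1, BATF3, IFIH1, SND1-IT1 and LINC01004 did not pass (adjusted p 0.0588 to 0.202). With only the 8 edited libraries SOCS1, TYK2 and FGB did not (adjusted p 0.0602 to 0.0694), nor did TYK2 with no filter on low counts (adjusted p = 0.058).

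The change with IFN differed between edited and sgNeg2 cells in 12 named genes. As log2 differences of edited minus sgNeg2, the positive ones were LBP (1.35), DENND1C (1.96), FGB (1.88), NYNRIN (1.73) and CYBRD1 (1.72), and the negative ones were GBP5 (-2.69), APOL1 (-1.33), MYC (-0.82), KCNQ1OT1 (-0.79), BST2 (-2.19), ENTPD1 (-2.13) and LGALS3BP (-1.58). The libraries without which a difference did not pass were IFN sgNeg2 replicate 1 for DENND1C (adjusted p = 0.104), IFN sgNeg2 replicate 2 for DENND1C and CYBRD1 (adjusted p 0.0601 to 0.0855), sgNeg2 replicate 1 for DENND1C, APOL1 and MYC (adjusted p 0.0753 to 0.131) and sgNeg2 replicate 2 for DENND1C, GBP5, LGALS3BP, APOL1 and MYC (adjusted p 0.0666 to 0.214). With the IFN libraries thinned KCNQ1OT1 did not pass (-0.66, adjusted p = 0.0501).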

How the results depend on the processing

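Of the 87 changes of named genes, 72 kept their direction and side of the threshold under every alternative that gave them a value, as did 14 of 30 guide differences and 5 of 12 differences from sgNeg2. Of the 19, 16 and 20 alternatives, not each gave a value for every gene: 70 changes had one with EPZ-5676 as control and 59 without genes of overlapping exons. With EPZ-5676 as control 7 changes turned: IFIT1 (-0.24), MASP2 (-1.76), RPS2 (-0.23), ANKRD36BP1 (-0.63), SLC18A2 (-0.95), DENND1C (-0.49) and FGB (-1.54). Another 7 did not pass there: DOT1L (0.17), TMEM173 (0.26), SAA4 (-0.48), CORO1A (0.44), MSMP (0.24), FAM133CP (-0.25) and LOC101928020 (-1.08). The cause was not tested. The number of genes changed in edited cells was 6312 at 2-fold or more. The number that differed between the guides was 2854 to 7445 when 1 library was left out. The number that differed from sgNeg2 was 18 to 175 when 1 library was left out, 400 with DESeq2 and 1170 with guides as groups. Replicate numbers did not pair the libraries, with correlations of -0.066 to 0.046 over 15 pairs of groups. With a replicate block the counts were 12478 genes in edited cells, 4795 between guides, 48 from sgNeg2, 11450 with sg1 and 12244 with sg2. Without genes of overlapping exons they were 8865, 3516, 92, 8118 and 8626. VWF did not pass without sg1 replicate 2 (-1.47), sg2 replicate 1 (-1.42) or sg2 replicate 2 (-1.58). Libraries without IFN held fewer counts, which limits genes near 0 there.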
